A study of Mus musculus with 12 samples.

Results

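The comparison set all vascular endothelial cells against all epithelial cells sorted from mouse thymus. Its members are the 6 endothelial (VEC) and the 6 epithelial (TEC) raw-count columns, which are all 12 libraries of the series. The mice were C57 BL6 carrying a KitL-tomato reporter, an allele that every group shared, and their age is not in the labels. All cells were sorted as Lin- and Dapi-. Tomato+ VEC and tomato- VEC were EpCAM- CD31+ cells with or without tomato signal. Tomato+ cTEC (cortical) were EpCAM+ CD31- UEA1- Ly51+ cells with tomato signal, and tomato- mTEC (medullary) were EpCAM+ CD31- UEA1+ Ly51- cells without it. Each of these 4 populations had 3 libraries. Within TEC, the cortex or medulla and the reporter cannot be told apart. Polyadenylated RNA was amplified with a kit for very small inputs. The series title asks which stromal cells present membrane-bound Kit ligand to T-cell progenitors, and the lineage comparison asks which genes separate its endothelial and epithelial sides whichever population represents them.

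Endothelium lines the blood vessels of the thymus, through which progenitors enter and mature T cells leave. It is held together by VE-cadherin junctions and steered by vascular growth factor, angiopoietin and Notch receptors. Thymic epithelium forms a keratin-rich network instead of a sheet: cortical cells attract and instruct progenitors, and medullary cells test T cells for reaction to self. Both lineages rest on basement membrane and present antigen, and both can supply progenitors with Kit ligand.

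Levels are CPM, counts brought to a common library size, which compare libraries but not genes of different length. Where 3 values follow a lineage's name they are the lowest, the median and the highest of its 6 libraries. Populations are given library by library. The log2 difference ± SE is the mean of the 2 VEC populations minus the mean of the 2 TEC populations, each population weighted equally, from edgeR's quasi-likelihood test with Benjamini-Hochberg adjustment over 14792 tested genes. A gene was called at an adjusted p under 0.05. For genes with 3 or fewer counts in a population, a fold between lineage means stands in place of the fitted difference. It is a bound against 3 counts where a lineage had 0 counts, and carries a 95% counting interval where it had 1 to 3. The labels do not say whether replicates came from separate animals, so the p-values measure the spread between these libraries, which may be technical. In bulk samples fewer cells of a type and less RNA per cell cannot be told apart.

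Libraries held 8448280 to 10786569 counts in VEC and 8388869 to 11807130 counts in TEC. A count was seen for 13406 to 14346 genes in VEC libraries, 15086 to 15605 in cTEC and 16708 to 17015 in mTEC. VEC and TEC parted along the first principal component (49.3% of variance). The summed CPM of 10 endothelial markers was 5392 to 6917 in VEC libraries, against 4.33 to 257 in TEC libraries. The highest TEC value was tomato+ cTEC replicate 2 at 257, while the other 5 TEC libraries did not exceed 38.0. The summed CPM of 10 epithelial markers was 1.70 to 14.9 in VEC libraries, against 2772 to 4456 in TEC libraries. Both sums kept the lineages apart without overlap. The groups were sorted by CD31 and EpCAM, and the markers were chosen with earlier results of these data known. The exact permutation test (two-sided, p = 0.00216, the smallest that 6 against 6 allows, and 0.00563 after adjustment over 13 lists) therefore adds no support to this separation. Without cTEC replicate 2, a choice made after seeing the data, 1952 genes were called higher and 2930 lower in VEC.

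The genes behind the sort and the reporter are given as values, since the groups were made with them. Pecam1, which encodes CD31, had 2642, 2377 and 3346 CPM in tomato+ VEC and 5450, 3672 and 3517 CPM in tomato- VEC, against 1.74, 108 and 0.433 CPM in tomato+ cTEC and 7.62, 12.9 and 2.08 CPM in tomato- mTEC. Epcam had 0, 0 and 0.212 CPM in VEC libraries, against 212, 298 and 368 CPM in TEC libraries. Enpep, which encodes Ly51, had 0, 0.392 and 0.536 CPM in tomato+ VEC and 0, 0.212 and 0.672 CPM in tomato- VEC, against 103, 101 and 64.9 CPM in tomato+ cTEC and 15.8, 0 and 35.8 CPM in tomato- mTEC. Pecam1 and Epcam separated the lineages as gated, with the highest TEC level of Pecam1 in cTEC replicate 2. Enpep was highest in the Ly51+ cTEC libraries but was also measured in mTEC replicates 1 and 3, which were gated as Ly51-. Kitl, the reporter gene, had 809, 1546 and 775 CPM in tomato+ VEC and 393, 472 and 450 CPM in tomato- VEC, against 182, 234 and 250 CPM in tomato+ cTEC and 35.5, 4.53 and 26.1 CPM in tomato- mTEC. All 6 VEC libraries, tomato- included, lay above all TEC libraries in Kitl, and cTEC lay above mTEC.

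**Figure D1:**
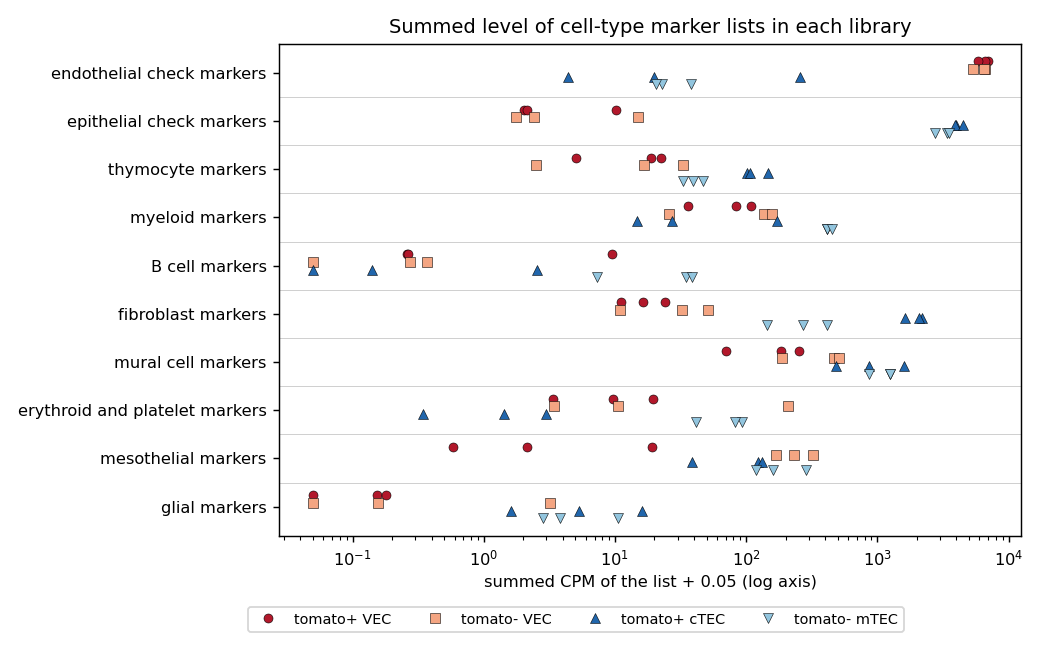
Summed CPM + 0.05 (horizontal log axis) of 10 marker lists, 1 point per library, coloured by population. Within a row the populations are drawn at different heights for legibility only, and height carries no level. The endothelial sum of 257 CPM in tomato+ cTEC replicate 2 stands above the other TEC libraries, and the fibroblast sum is 1616 to 2202 CPM in cTEC.

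Of 14792 tested genes, 5363 differed between the lineages, which is 36.3%. VEC were higher for 2137 genes (14.4%) and lower for 3226 (21.8%). These shares are the background of each list count below. A stricter count asked that a gene also pass, in the same direction, in each of the 4 pairs of a VEC and a TEC population. It left 721 genes higher in both VEC populations (4.87%) and 899 lower in both (6.08%), together 30.2% of the calls. These are called consistent genes below. In the single pairs, tomato+ VEC were higher than cTEC for 9.45% of tested genes and lower for 12.4%, and higher than mTEC for 12.4% and lower for 19.4%. Tomato- VEC were higher than cTEC for 8.63% and lower for 10.6%, and higher than mTEC for 10.6% and lower for 16.9%. The median log2 difference was -0.18 over all tested genes, 3.18 over the 721 and -7.85 over the 899. All 6 VEC libraries lay above all 6 TEC libraries for 1108 genes (7.49%) and below them for 1404 (9.49%). Among consistent genes, 10 of those higher in VEC had 0 counts in every TEC library, and 125 of those lower had 0 counts in every VEC library. With libraries scaled by total counts alone, 1733 genes were higher and 3723 lower, and the median of all genes was -0.41. With population as a random effect, which takes up an estimated correlation of 0.259 within populations, 1169 genes were higher and 1699 lower.

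**Figure D2:**
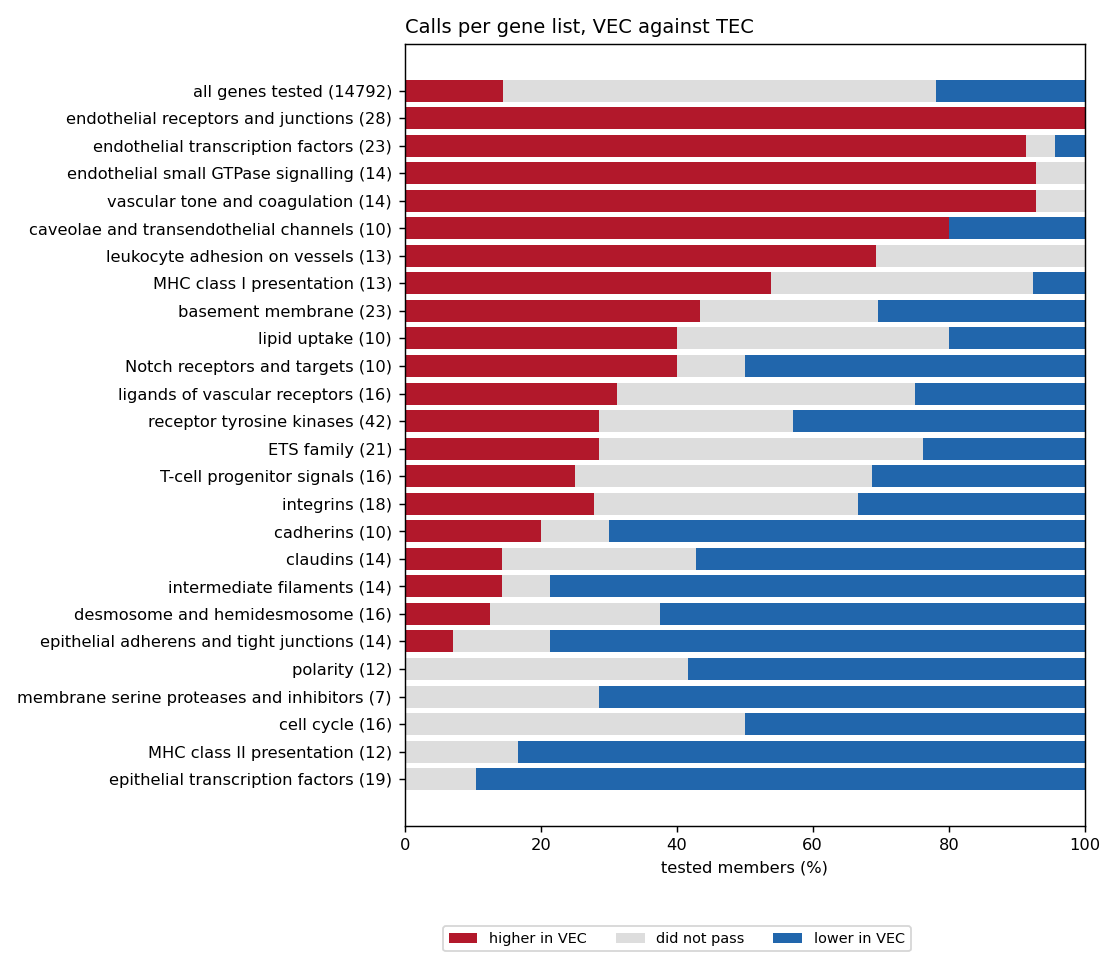
Share of tested members of 25 gene lists, and of all genes, that were higher in VEC (red), did not pass (grey) or were lower in VEC (blue), with the number tested in brackets and the axis in percent. The lists of endothelial receptors and junctions, endothelial transcription factors, small GTPase signalling, and vascular tone and coagulation are nearly all red. Those of caveolae and leukocyte adhesion are mostly red. Lists of epithelial transcription factors, intermediate filaments and MHC class II genes are mostly blue. Ligands of vascular receptors, receptor tyrosine kinases, integrins and basement membrane genes are split.

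The gap between the lineages was measured as the lowest library of the higher lineage over the highest library of the lower one, with the denominator kept at no less than 3 counts. Among consistent genes higher in VEC it was widest for Enpp3, Clec1a, Aqp1, Robo4, Ldb2, Ctla2a, Lhx6, Gpr182, Col15a1 and Sh3tc1. Among those lower it was widest for Krt18, Krt8, Krt14, Crip3, Krt7, Epcam, Mreg, Krt17, Slc46a2 and Dsc2. Since the gap chose these 20 genes, their values are a description. Enpp3, a nucleotide-hydrolysing ectoenzyme, had 100.4, 169 and 231 CPM in VEC libraries, against 0, 0.0941 and 0.346 CPM in TEC libraries. Aqp1, a water channel, had 551, 885 and 1935 CPM in VEC libraries, against 0.173, 1.03 and 3.14 CPM in TEC libraries. Robo4, the endothelial member of the roundabout receptors, had 258, 317 and 645 CPM in VEC libraries, against 0, 0.440 and 3.05 CPM in TEC libraries. These levels leave at least an order of magnitude between the lowest VEC and the highest TEC library. Krt18 and Krt8, the keratin pair of simple epithelia, were measured at 0.319, 0.528 and 0.897 CPM in VEC libraries, against 1196, 1954 and 2980 CPM in TEC libraries for Krt18, and at 0, 0.121 and 0.214 CPM in VEC libraries, against 410, 487 and 534 CPM in TEC libraries for Krt8. Slc46a2, a transporter first described in thymic stroma, had 0, 0 and 0.428 CPM in VEC libraries, against 180, 223 and 438 CPM in TEC libraries. The gap was 55.0 to 288 for the 10 genes higher in VEC and 394 to 1334 for the 10 lower. Ctla2a has the near copy Ctla2b, and the handling of reads shared by near copies is unknown here. The same holds for Ccl21a, the H2 genes and the globin genes below.

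**Figure D3:**
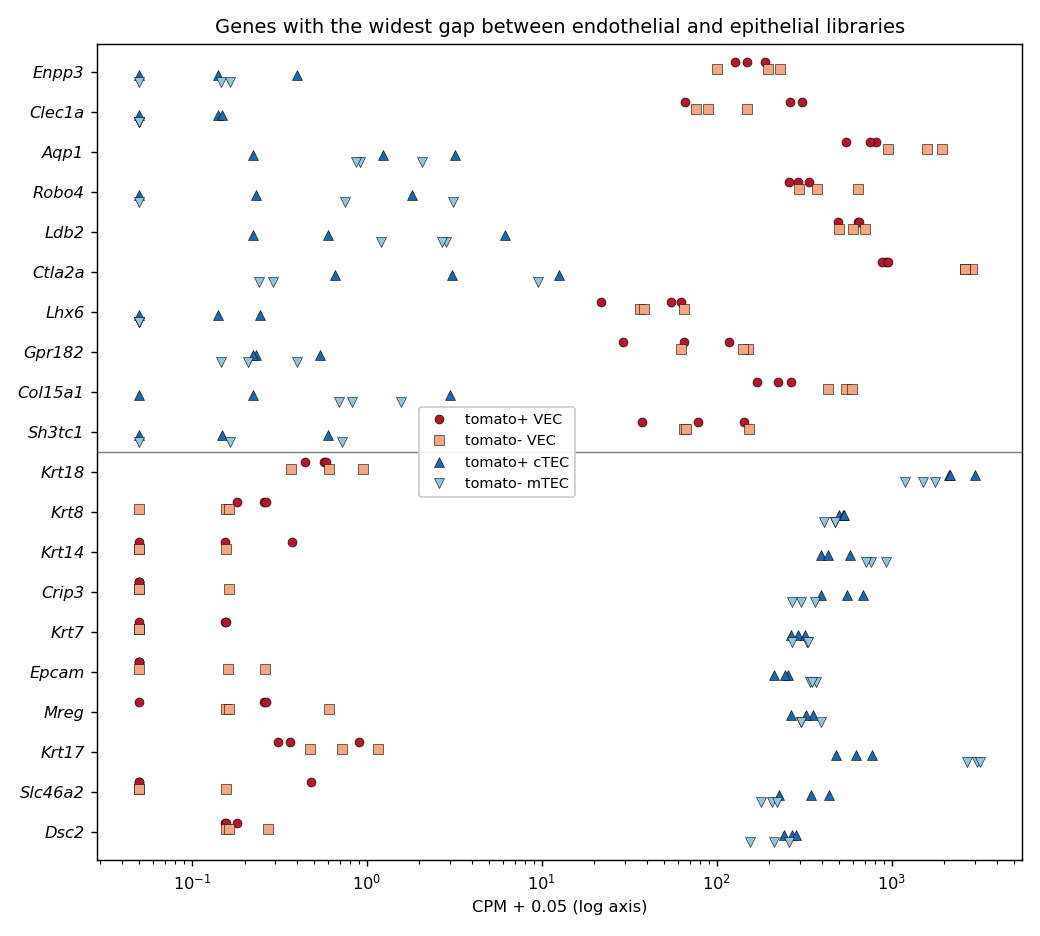
CPM + 0.05 (horizontal log axis) of the 20 genes with the widest gap between lineages, 1 point per library, coloured by population. Within a row the populations are drawn at different heights for legibility only. Each of the first 10 genes has all VEC points at higher CPM than all TEC points, and each of the last 10 has them at lower CPM.

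Receptors and junction proteins of vessels were higher in VEC across the list. All 28 tested members were higher, of 29 listed, and 26 were consistent; Mmrn1 had 0 counts in every library. The median log2 difference was 6.93, or 6.42 with lineage means and bounds, against -0.18 over all genes. Nrp1, a co-receptor for vascular growth factors and semaphorins, had 531, 934 and 1461 CPM in VEC libraries, against 14.8, 25.6 and 86.4 CPM in TEC libraries, a log2 difference of 4.71 ± 0.29 (adjusted p = 2.27e-07). Aplnr, the apelin receptor, had 179, 329 and 611 CPM in VEC libraries, against 0.962, 2.51 and 14.2 CPM in TEC libraries, a log2 difference of 6.55 ± 0.45 (adjusted p = 5.16e-07). Calcrl, the calcitonin-like receptor that pairs with Ramp2 to bind adrenomedullin, had 467, 570 and 1190 CPM in VEC libraries, against 27.9, 99.0 and 189 CPM in TEC libraries, a log2 difference of 3.01 ± 0.22 (adjusted p = 8.33e-07). No VEC library overlapped a TEC library for these 3 genes, although Calcrl was well above 0 in all TEC libraries. Gpr116, an adhesion receptor, had 548, 851 and 1190 CPM in VEC libraries, against 1.40, 8.71 and 70.1 CPM in TEC libraries, a log2 difference of 6.26 ± 0.59 (adjusted p = 6.98e-06). Kdr, the main signalling receptor for vascular endothelial growth factor, had 147, 393 and 540 CPM in VEC libraries, against 0, 0.276 and 23.4 CPM in TEC libraries, a log2 difference of 8.13 ± 0.98 (adjusted p = 4.6e-05). Both were separate between lineages, and their highest TEC library was cTEC replicate 2. Cldn5, the claudin of tight endothelial junctions, and Vwf, the clotting protein von Willebrand factor, were called in the lineage comparison but not in all 4 pairs. Vwf had 101, 26.3 and 91.7 CPM in tomato+ VEC and 1834, 1684 and 1538 CPM in tomato- VEC, against 0.0917, 34.1 and 0 CPM in tomato+ cTEC and 18.0, 3.37 and 2.32 CPM in tomato- mTEC, so that VEC and TEC libraries overlapped. Without cTEC replicate 2 all 28 members were again called and the list median was 8.66. The log2 difference of Gpr116 was then 7.02, and that of Kdr was 9.90 without tomato- mTEC replicate 2.

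Transcription factors of vessel identity followed the receptors. Of 23 tested, 21 were higher in VEC, 1 (Heyl) was lower, and 1 (Foxf1, adjusted p = 0.053) did not pass, while 14 of the higher genes were consistent. The median was 5.02 (4.89 with lineage means and bounds). Meox1, a homeobox factor, had 119, 267 and 526 CPM in VEC libraries, against 2.16, 14.0 and 25.2 CPM in TEC libraries, a log2 difference of 5.02 ± 0.29 (adjusted p = 1.48e-07). Sox7, a member of the SOX group that specifies endothelium, had 120, 184 and 413 CPM in VEC libraries, against 0, 2.85 and 8.20 CPM in TEC libraries, a log2 difference of 7.59 ± 0.60 (adjusted p = 1.51e-06). Fli1 of the ETS family had 914, 1157 and 1690 CPM in VEC libraries, against 0.386, 2.79 and 32.1 CPM in TEC libraries, a log2 difference of 8.26 ± 0.57 (adjusted p = 5.41e-07). For all 3, every VEC library exceeded every TEC library. Erg, a second endothelial ETS factor, was the weakest call: it had 1.14, 13.0 and 35.1 CPM in VEC libraries, against 0, 0.698 and 1.68 CPM in TEC libraries, a log2 difference of 3.93 ± 1.30 (adjusted p = 0.0326), and its libraries overlapped. The call was lost without tomato+ VEC replicate 3, tomato- VEC replicate 2, tomato+ cTEC replicate 1 or 2 or tomato- mTEC replicate 1, 2 or 3 (highest adjusted p = 0.0804). Heyl, a Notch target, had 0, 0.108 and 0.321 CPM in VEC libraries, against 0.0866, 8.19 and 12.9 CPM in TEC libraries, 61.0-fold lower in VEC by the ratio of means (adjusted p = 0.00149). Without tomato+ cTEC replicate 2 the list had 20 genes higher and a median of 6.62, and the log2 difference was 9.60 for Sox7 and 8.95 for Fli1. That of Erg was 6.61 without tomato+ cTEC replicate 3, and Erg did not pass with population as a random effect (adjusted p = 0.0501).

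To show regulatory sequence beside these factors, the promoters of consistent genes were searched on both strands for the letters that ETS factors (CAGGAAGT and CCGGAAGT), grainyhead factors (AACCNGTT), SOX factors (AACAATNG) and GATA factors (AGATAAG) are known to bind. RefSeq promoters (GRCm38.p6, 250 bases before to 50 after a start) were matched for 523 of the 721 genes higher in VEC and 617 of the 899 lower, as 732 and 792 promoters. CAGGAAGT occurred in 3.69% of promoters of genes higher in VEC, 3.28% of promoters of genes lower in VEC and 3.51% of 13666 promoters of all tested genes. CCGGAAGT, which holds a CG, occurred in 2.87%, 2.02% and 6.97% in the same order. The median number of CG dinucleotides per promoter was 15, 13 and 19, and its part in these shares was not tested. AACCNGTT occurred in 2.05%, 3.79% and 1.95%. AACAATNG occurred in 2.05%, 1.64% and 1.50%, and AGATAAG in 2.32%, 2.52% and 2.02%. Both ETS words share GGAAGT, and a match is a description of letters, not a bound site. An ETS word was found in promoters of TEC genes, such as Spint1, Ccl25, Cldn7 and Krt8, as well as of VEC genes, such as Tfpi. The promoters below, picked after the search, show an ETS word in the VEC genes Egfl7 (a secreted vessel protein; chr2:26583615-26583914, plus strand) and Rhoj (a small GTPase; chr12:75308063-75308362, plus strand). They also show a grainyhead word in the TEC gene Cgn (cingulin of tight junctions; chr3:94786433-94786732, minus strand). Capitals mark the matches, which in Rhoj include a SOX word. The SOX word in Rhoj and the grainyhead word in Cgn lie on the opposite strand, so the capitals there show the reverse complement of the word.
Egfl7: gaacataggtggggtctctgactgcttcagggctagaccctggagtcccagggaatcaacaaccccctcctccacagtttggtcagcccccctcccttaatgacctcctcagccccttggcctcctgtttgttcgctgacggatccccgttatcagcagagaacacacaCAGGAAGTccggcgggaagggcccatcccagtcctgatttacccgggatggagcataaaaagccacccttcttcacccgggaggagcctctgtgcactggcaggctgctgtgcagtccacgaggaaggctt
Rhoj: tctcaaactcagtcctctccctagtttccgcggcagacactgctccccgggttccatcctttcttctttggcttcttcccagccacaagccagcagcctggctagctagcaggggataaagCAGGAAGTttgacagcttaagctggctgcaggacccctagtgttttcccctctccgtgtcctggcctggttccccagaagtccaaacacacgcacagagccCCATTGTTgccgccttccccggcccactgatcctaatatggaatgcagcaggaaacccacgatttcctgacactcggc
Cgn: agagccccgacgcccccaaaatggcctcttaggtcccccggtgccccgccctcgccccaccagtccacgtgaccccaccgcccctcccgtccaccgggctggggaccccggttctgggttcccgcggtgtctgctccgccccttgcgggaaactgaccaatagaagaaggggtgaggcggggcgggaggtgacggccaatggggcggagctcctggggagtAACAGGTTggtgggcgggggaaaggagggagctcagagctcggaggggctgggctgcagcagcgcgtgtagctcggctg
Egfl7 had 922, 1094 and 1582 CPM in VEC libraries, against 0, 3.59 and 57.4 CPM in TEC libraries, a log2 difference of 7.32 ± 1.23 (adjusted p = 0.000608). Rhoj had 115, 152 and 178 CPM in VEC libraries, against 0.952, 2.78 and 13.1 CPM in TEC libraries, a log2 difference of 5.13 ± 0.59 (adjusted p = 3.43e-05). Cgn had 0, 0.0560 and 0.214 CPM in VEC libraries, against 42.3, 55.7 and 69.9 CPM in TEC libraries, 632-fold lower in VEC by the ratio of means (adjusted p = 7.33e-07). In all 3 genes the libraries of the lineages were separate. The log2 difference of Egfl7 was 8.69 without tomato+ cTEC replicate 2 and 9.05 without tomato- mTEC replicate 2, and that of Rhoj was 5.96 without tomato+ cTEC replicate 2.

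Small-GTPase regulators that shape endothelial junctions were higher in VEC for 13 of 14 tested members, 9 of them consistent, with a median of 4.66 (4.39 with lineage means and bounds). Cdc42ep5 did not pass (adjusted p = 0.236). Dock9, an activator of Cdc42, had 316, 427 and 965 CPM in VEC libraries, against 19.6, 44.5 and 87.6 CPM in TEC libraries, a log2 difference of 3.74 ± 0.23 (adjusted p = 2.23e-07). Rasip1, a Ras-interacting protein needed for vessel lumens, had 102, 161 and 232 CPM in VEC libraries, against 1.47, 5.97 and 12.5 CPM in TEC libraries, a log2 difference of 4.86 ± 0.44 (adjusted p = 5.09e-06). Arhgap29, a GTPase-activating protein that works with Rasip1, had 452, 506 and 732 CPM in VEC libraries, against 0.561, 12.0 and 38.6 CPM in TEC libraries, a log2 difference of 5.69 ± 0.65 (adjusted p = 3.05e-05). The lineages were separate in each, and Dock9 was present in all TEC libraries. Leaving out tomato- mTEC replicate 2 gave Arhgap29 a log2 difference of 6.64.

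Caveolae, the membrane pits abundant in endothelium, and the diaphragm protein of its pores were higher in VEC. Of 10 tested members, 8 were higher, all consistent, and 2 (Pacsin2 and Pacsin3) were lower, with a median of 4.06 (3.92 with lineage means and bounds). Cav1, the main caveolar coat protein, had 2323, 3776 and 5389 CPM in VEC libraries, against 22.6, 79.1 and 462 CPM in TEC libraries, a log2 difference of 5.28 ± 0.36 (adjusted p = 5.16e-07). Ptrf, which encodes cavin 1, had 737, 1014 and 1271 CPM in VEC libraries, against 80.2, 148 and 276 CPM in TEC libraries, a log2 difference of 2.71 ± 0.16 (adjusted p = 1.9e-07). Sdpr, which encodes cavin 2, had 572, 868 and 1586 CPM in VEC libraries, against 0.193, 4.38 and 65.3 CPM in TEC libraries, a log2 difference of 7.54 ± 0.60 (adjusted p = 1.7e-06). VEC libraries were above TEC libraries throughout, and cTEC replicate 2 was the highest TEC library for Cav1 and Sdpr. Pacsin3, a membrane-bending protein, had 0, 0 and 0 CPM in VEC libraries, against 7.10, 11.3 and 16.4 CPM in TEC libraries, at least 209-fold lower in VEC (adjusted p = 0.00013). It had 0 counts in all VEC libraries and was present in all TEC libraries. Leaving out tomato- mTEC replicate 2 gave Sdpr a log2 difference of 8.23.

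Genes of vascular tone and clotting were higher in VEC for 13 of 14 tested, 6 of them consistent, with a median of 3.94 (3.84 with lineage means and bounds); Nt5e did not pass (adjusted p = 0.125). Tfpi, an inhibitor of the clotting cascade, had 133, 216 and 242 CPM in VEC libraries, against 8.77, 11.9 and 16.1 CPM in TEC libraries, a log2 difference of 4.03 ± 0.23 (adjusted p = 1.48e-07). Thbd, which encodes thrombomodulin, had 230, 484 and 1242 CPM in VEC libraries, against 13.2, 89.8 and 217 CPM in TEC libraries, a log2 difference of 3.18 ± 0.20 (adjusted p = 2.96e-07). Ece1, which processes endothelins, had 1902, 2252 and 2487 CPM in VEC libraries, against 21.5, 34.0 and 135 CPM in TEC libraries, a log2 difference of 5.41 ± 0.49 (adjusted p = 4.69e-06). These 3 genes separated the lineages, though Thbd was also present in all TEC libraries. F8, clotting factor VIII, had 67.7, 34.0 and 35.1 CPM in tomato+ VEC and 362, 488 and 521 CPM in tomato- VEC, against 1.47, 4.12 and 13.2 CPM in tomato+ cTEC and 2.80, 3.49 and 6.25 CPM in tomato- mTEC. Its log2 difference was 4.81 ± 0.49 (adjusted p = 1.32e-05), and the tomato+ VEC libraries were all below the tomato- VEC libraries. Procr, the protein C receptor, was called at an adjusted p of 0.0396, a call lost without tomato+ VEC replicate 3, tomato- VEC replicate 1, 2 or 3, tomato+ cTEC replicate 1 or 3 or tomato- mTEC replicate 1, 2 or 3 (highest adjusted p = 0.0872). Procr also did not pass with total-count scaling (adjusted p = 0.0546) or with population as a random effect (adjusted p = 0.212), and its adjusted p was 0.000406 without tomato+ cTEC replicate 2. Ece1 had a log2 difference of 6.16 without tomato+ cTEC replicate 2. F8 had one of 5.42 without tomato+ cTEC replicate 3, and did not pass with population as a random effect (adjusted p = 0.0705).

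Lipid uptake genes were called in both directions. Of 10 tested, 4 were higher in VEC (Cd36, Fabp4, Gpihbp1 and Scarb1, all consistent), 2 were lower, Fabp5 among them, and 4 did not pass. The median was 0.28 (1.25 with lineage means and bounds). The fatty-acid binding proteins Fabp4 and Fabp5 moved in opposite directions. Fabp4 had 4421, 9343 and 16034 CPM in VEC libraries, against 33.9, 230 and 419 CPM in TEC libraries, a log2 difference of 5.41 ± 0.58 (adjusted p = 1.76e-05). Fabp5 had 103, 209 and 305 CPM in VEC libraries, against 545, 651 and 1282 CPM in TEC libraries, a log2 difference of -1.95 ± 0.20 (adjusted p = 1.51e-05). Gpihbp1, the capillary anchor of lipoprotein lipase, had 274, 1445 and 3184 CPM in VEC libraries, against 0.721, 1.15 and 23.7 CPM in TEC libraries, a log2 difference of 8.32 ± 0.91 (adjusted p = 2.25e-05). Each of the 3 was separate between lineages. Leaving out tomato+ cTEC replicate 2 gave log2 differences of 6.41 for Fabp4 and 9.97 for Gpihbp1.

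Leukocyte adhesion molecules of vessels were higher in VEC for 9 of 13 tested, 7 consistent and none lower, with a median of 5.34 (5.08 with lineage means and bounds). Darc, a chemokine-binding receptor of venules, had 61.5, 1195 and 3503 CPM in VEC libraries, against 0.0917, 0.331 and 7.70 CPM in TEC libraries, a log2 difference of 9.94 ± 0.82 (adjusted p = 2.24e-06). Selp, P-selectin, which slows passing leukocytes, had 26.9, 577 and 1488 CPM in VEC libraries, against 0, 0.553 and 8.37 CPM in TEC libraries, a log2 difference of 7.79 ± 0.86 (adjusted p = 2.53e-05). Sele, E-selectin, had 13.7, 100.1 and 553 CPM in VEC libraries, against 0, 0.132 and 1.74 CPM in TEC libraries, a log2 difference of 8.42 ± 0.84 (adjusted p = 1.07e-05). The VEC libraries themselves spread widely in these genes, yet the lowest VEC library was above the highest TEC library. Icam1, an integrin ligand, had 390, 515 and 575 CPM in VEC libraries, against 400.0, 427 and 605 CPM in TEC libraries and did not pass (adjusted p = 0.592). Vcam1, another integrin ligand, had 309, 976 and 2092 CPM in VEC libraries, against 432, 517 and 601 CPM in TEC libraries, a log2 difference of 0.82 ± 0.23 (adjusted p = 0.0153), and its lineages overlapped. Both were measured in every TEC library. Without tomato+ cTEC replicate 2 the list median was 7.09, with 9 genes again called. The log2 difference was 11.10 for Darc without tomato- mTEC replicate 3, 8.73 for Selp without tomato+ cTEC replicate 3 and 10.13 for Sele without tomato- mTEC replicate 2. With population as a random effect Darc (adjusted p = 0.15), Selp (adjusted p = 0.126) and Vcam1 (adjusted p = 0.247) did not pass. Vcam1 also missed the threshold with total-count scaling (adjusted p = 0.0672), 2 lineage terms (adjusted p = 0.0534) and limma-trend on RPKM (adjusted p = 0.0892).

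Epithelial transcription factors were lower in VEC for 17 of 19 tested members, of 22 listed, and 14 were consistent. The median was -7.89 (-8.56 with lineage means and bounds). Pax1, needed for thymus formation, had 0, 0.0520 and 0.262 CPM in VEC libraries, against 20.9, 87.0 and 231 CPM in TEC libraries, 1305-fold lower in VEC by the ratio of means (adjusted p = 2.89e-07). Six4, a homeobox factor of the pharyngeal pouch network, had 0, 0.108 and 0.212 CPM in VEC libraries, against 32.2, 57.0 and 90.4 CPM in TEC libraries, 678-fold lower in VEC by the ratio of means (adjusted p = 3.63e-07). Eya2, a coactivator that partners Six4, had 0, 0 and 0.212 CPM in VEC libraries, against 51.3, 86.5 and 133 CPM in TEC libraries, 1602-fold lower in VEC with a counting interval of 548 to 7771 (adjusted p = 5.16e-07). All were near 0 in every VEC library and well above it in both TEC populations. Foxn1, the master regulator of thymic epithelium, had 0, 0.0520 and 0.214 CPM in VEC libraries, against 33.5, 52.8 and 80.2 CPM in TEC libraries, 783-fold lower in VEC by the ratio of means (adjusted p = 6.12e-07). Ovol1 (adjusted p = 0.0629) and Hoxa3 (adjusted p = 0.234) did not pass, and Hoxa3, which acts upstream in pouch development, had 5.90, 17.0 and 22.8 CPM in VEC libraries, against 5.00, 9.50 and 17.6 CPM in TEC libraries.

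The 3 epithelial splicing regulators were lower in VEC and consistent. Rbm47 had 0.107, 0.525 and 1.34 CPM in VEC libraries, against 250, 345 and 406 CPM in TEC libraries, a log2 difference of -9.29 ± 0.34 (adjusted p = 5.72e-09). Esrp1 had 0, 0.109 and 0.224 CPM in VEC libraries, against 47.0, 77.4 and 113 CPM in TEC libraries, 743-fold lower in VEC by the ratio of means (adjusted p = 2.58e-07). Esrp2 had 0, 0 and 0 CPM in VEC libraries, against 0.196, 2.95 and 9.55 CPM in TEC libraries, at least 69.3-fold lower in VEC (adjusted p = 0.00268). Each was at or near 0 in all VEC libraries. Among 4 tested mesenchymal factors, which repress epithelial genes, 2 were higher in VEC, 1 was lower and 1 did not pass. Zeb1 had 58.7, 123 and 180 CPM in VEC libraries, against 1.83, 3.53 and 9.26 CPM in TEC libraries, a log2 difference of 4.84 ± 0.49 (adjusted p = 1.18e-05). Snai1 had 17.7, 36.8 and 73.5 CPM in VEC libraries, against 0, 0.429 and 4.12 CPM in TEC libraries, a log2 difference of 5.37 ± 1.14 (adjusted p = 0.00294). Both were separate between the lineages. Snai2 had 40.7, 73.3 and 127 CPM in VEC libraries, against 64.4, 144 and 162 CPM in TEC libraries, a log2 difference of -0.91 ± 0.22 (adjusted p = 0.00694), with overlapping libraries. The call of Snai2 was lost with 2 lineage terms (adjusted p = 0.0722) and with population as a random effect (adjusted p = 0.123). Zeb2 had 0.104, 0.857 and 2.47 CPM in VEC libraries, against 0, 0.188 and 9.60 CPM in TEC libraries and did not pass (adjusted p = 0.811), with its highest value in cTEC replicate 2. Leaving out this library gave the mesenchymal list a median of 3.71, against 2.64 with it, and Snai1 a log2 difference of 7.71.

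The ETS family contains both vessel and epithelial factors. Of 21 tested members, of 26 listed, 6 were higher in VEC (Fli1, Ets2, Ets1, Elk3, Elf2 and Erg), 5 were lower (Ehf, Spib, Elf3, Etv4 and Spic) and 10 did not pass. Over all tested genes 14.4% were higher and 21.8% lower, and 4 of the higher and 1 of the lower ETS genes were consistent. The median was 0.23 (0.22 with lineage means and bounds). Ets2 had 266, 294 and 420 CPM in VEC libraries, against 38.6, 51.9 and 72.4 CPM in TEC libraries, a log2 difference of 2.55 ± 0.18 (adjusted p = 5.65e-07). Ets1 had 457, 668 and 911 CPM in VEC libraries, against 13.4, 35.5 and 102 CPM in TEC libraries, a log2 difference of 4.30 ± 0.31 (adjusted p = 6.35e-07). These 2 factors were well expressed in TEC too, without overlap. Ehf, an epithelial member, had 0.104, 0.213 and 0.445 CPM in VEC libraries, against 0.294, 77.3 and 191 CPM in TEC libraries, a log2 difference of -7.35 ± 0.80 (adjusted p = 2.16e-05), and cTEC replicate 2 lay within the VEC range. Spib had 0.208, 0.392 and 0.214 CPM in tomato+ VEC and 0.223, 0.212 and 0.560 CPM in tomato- VEC, against 5.50, 0.0980 and 0.693 CPM in tomato+ cTEC and 108, 171 and 123 CPM in tomato- mTEC, and cTEC overlapped VEC while mTEC lay far above. The call of Spic was lost without tomato+ cTEC replicate 3 (adjusted p = 1). Ehf did not pass with population as a random effect (adjusted p = 0.0896).

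Adherens and tight junction genes of epithelium were lower in VEC for 11 of 14 tested (8 consistent, Epcam of the sort included), 1 was higher and 2 did not pass, with a median of -6.94 (-6.83 with lineage means and bounds). Cdh1, E-cadherin, had 0, 0.0520 and 0.224 CPM in VEC libraries, against 154, 194 and 231 CPM in TEC libraries, 2690-fold lower in VEC by the ratio of means (adjusted p = 1.19e-08). Ap1m2, an epithelial clathrin adaptor subunit, had 0, 0.162 and 0.262 CPM in VEC libraries, against 55.1, 111 and 167 CPM in TEC libraries, 863-fold lower in VEC by the ratio of means (adjusted p = 1.9e-07). Both were absent or nearly so from all VEC libraries. F11r, a junctional adhesion molecule shared by both lineages, was the member that was higher in VEC: it had 641, 814 and 1085 CPM in VEC libraries, against 90.5, 220 and 301 CPM in TEC libraries, a log2 difference of 2.07 ± 0.18 (adjusted p = 3.28e-06), without overlap.

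Cadherins, Cdh1 included, parted by lineage. Of 10 tested, of 14 listed, 2 were higher in VEC (Cdh5 and Cdh13, both consistent), 7 were lower, 4 of them consistent, and 1 (Cdh15) did not pass. Cdh5, VE-cadherin, had 913, 1122 and 1610 CPM in VEC libraries, against 0.346, 0.911 and 37.6 CPM in TEC libraries, a log2 difference of 8.20 ± 1.05 (adjusted p = 8.08e-05). Cdh11 had 0.637, 1.28 and 2.57 CPM in VEC libraries, against 17.0, 88.8 and 234 CPM in TEC libraries, a log2 difference of -5.50 ± 0.41 (adjusted p = 1.01e-06). Cdh3, P-cadherin, had 0, 0.210 and 0.445 CPM in VEC libraries, against 15.4, 45.6 and 84.8 CPM in TEC libraries, 211-fold lower in VEC by the ratio of means (adjusted p = 1.79e-06). No gene of these 3 overlapped between lineages. Of 14 tested claudins, of 24 listed, 2 were higher in VEC (Cldn5 and Cldn15), 8 were lower, 4 of them consistent, and 4 did not pass. Cldn1 had 0, 0 and 0 CPM in VEC libraries, against 45.1, 51.7 and 75.1 CPM in TEC libraries, at least 974-fold lower in VEC (adjusted p = 3.3e-06). Cldn4 had 0, 0 and 0.214 CPM in VEC libraries, against 4.70, 48.3 and 128 CPM in TEC libraries, 1407-fold lower in VEC with a counting interval of 389 to 11624 (adjusted p = 1.14e-05). Cldn7 had 0, 0 and 0.112 CPM in VEC libraries, against 0, 37.6 and 83.6 CPM in TEC libraries, 1037-fold lower in VEC with a counting interval of 287 to 8565 (adjusted p = 0.000252). Cldn1 and Cldn4 were separate between lineages, while Cldn7 was at 0 in a TEC library. Cldn25 had 77.8, 93.7 and 159 CPM in VEC libraries, against 111, 130 and 152 CPM in TEC libraries and did not pass (adjusted p = 0.185), with overlapping libraries. Cdh5 had a log2 difference of 10.31 without tomato+ cTEC replicate 2, and Cldn7 did not pass with population as a random effect (adjusted p = 0.0517).

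**Figure D4:**
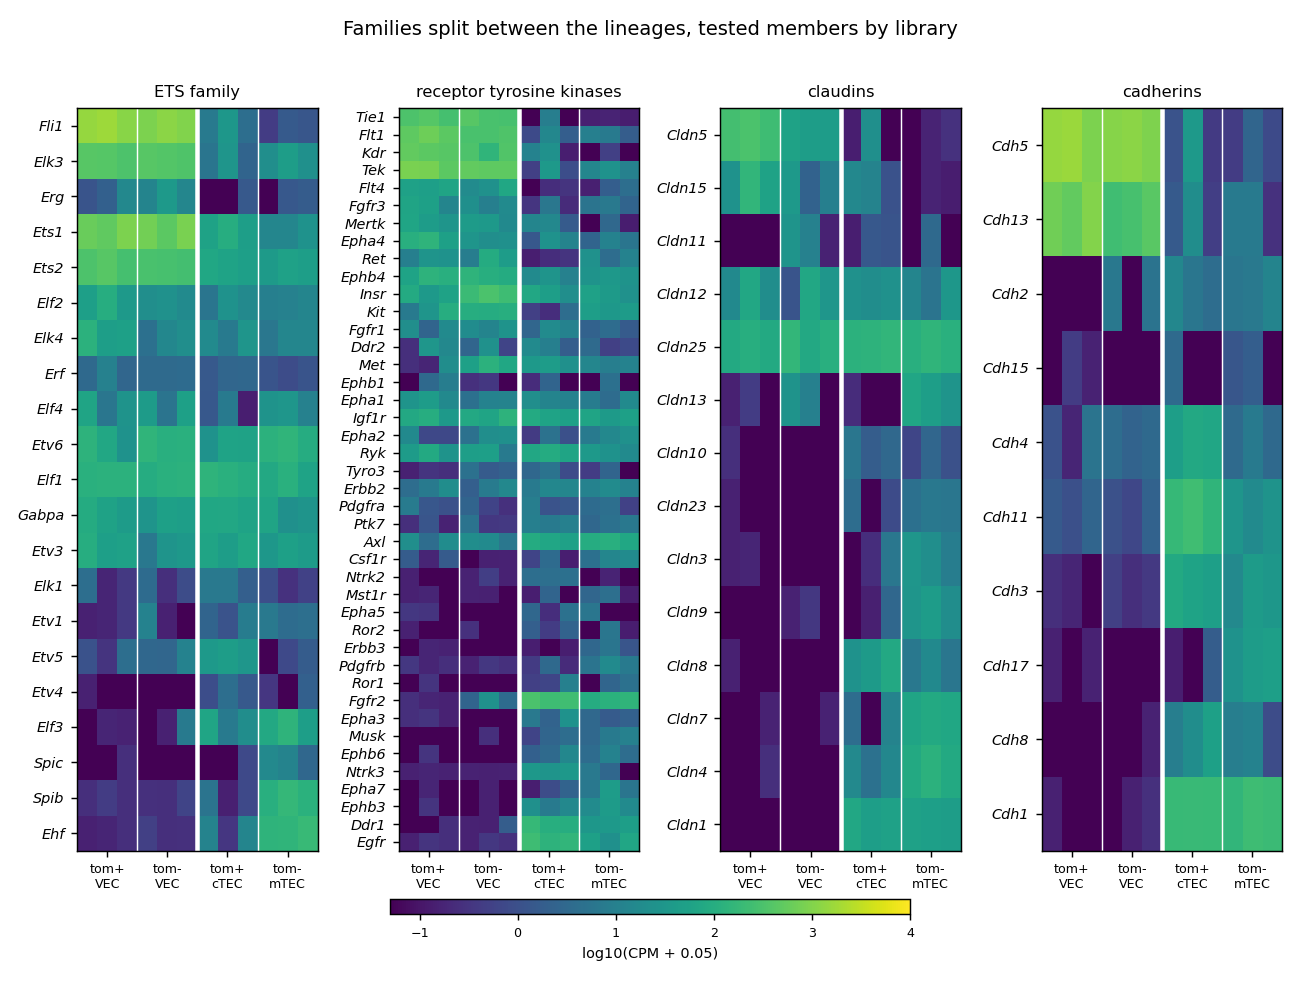
Heat maps of log10(CPM + 0.05) for the ETS family, receptor tyrosine kinases, claudins and cadherins, genes in rows and 12 libraries in columns, VEC left of TEC. Each family holds blocks of genes that are bright in VEC and dark in TEC, such as Fli1, Kdr, Cldn5 and Cdh5, and blocks with the opposite pattern, such as Ehf, Egfr, Cldn1 and Cdh1.

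Desmosomes and hemidesmosomes anchor keratin at cell borders and to the basement membrane. Of 16 tested members, of 17 listed, 10 were lower in VEC, 8 of them consistent, 2 were higher and 4 did not pass, with a median of -4.78 (-4.38 with lineage means and bounds). Dsc2, a desmosomal cadherin, had 0.104, 0.110 and 0.223 CPM in VEC libraries, against 155, 250 and 285 CPM in TEC libraries, 1815-fold lower in VEC by the ratio of means (adjusted p = 4.79e-10). Perp, a membrane protein of desmosomes, had 0.262, 0.428 and 1.67 CPM in VEC libraries, against 421, 514 and 690 CPM in TEC libraries, a log2 difference of -9.67 ± 0.42 (adjusted p = 1.73e-08). Pkp1, a plaque protein, had 0, 0 and 0.112 CPM in VEC libraries, against 47.9, 59.1 and 93.6 CPM in TEC libraries, 3417-fold lower in VEC with a counting interval of 613 to 134983 (adjusted p = 1.14e-06). All were separate between lineages. The linkers Plec (1.31 ± 0.16, adjusted p = 6.75e-05) and Dst (1.10 ± 0.21, adjusted p = 0.00173) were higher in VEC on the log2 scale, and the hemidesmosome integrins Itga6 (adjusted p = 1) and Itgb4 (adjusted p = 0.135) did not pass.

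Intermediate filaments, mostly keratins, differed between the lineages. Of 14 tested, 11 were lower in VEC, 8 of them consistent, 2 were higher (Vim and Nes) and 1 (Synm) did not pass, with a median of -9.63 (-8.72 with lineage means and bounds). Krt17 had 0.262, 0.549 and 1.11 CPM in VEC libraries, against 482, 1731 and 3213 CPM in TEC libraries, a log2 difference of -11.13 ± 0.35 (adjusted p = 1.1e-09). Krt14, a basal-cell keratin, had 0, 0.0520 and 0.321 CPM in VEC libraries, against 396, 646 and 928 CPM in TEC libraries, 7177-fold lower in VEC by the ratio of means (adjusted p = 3.72e-09). Krt5, its partner, had 0.111, 0.396 and 0.624 CPM in VEC libraries, against 121, 423 and 666 CPM in TEC libraries, a log2 difference of -9.92 ± 0.43 (adjusted p = 1.67e-08). All VEC libraries were at about 1 CPM or less in these keratins. Vim, vimentin, had 1207, 1528 and 1686 CPM in VEC libraries, against 21.4, 208 and 256 CPM in TEC libraries, a log2 difference of 3.31 ± 0.42 (adjusted p = 7.85e-05), and all VEC libraries were above the TEC libraries. The call of Krt10 was lost without tomato+ cTEC replicate 3 or tomato- mTEC replicate 1 (highest adjusted p = 0.0603). The call of Des, also a mural marker, was lost without tomato+ VEC replicate 1 or 2, tomato- VEC replicate 1 or 2, tomato+ cTEC replicate 2 or tomato- mTEC replicate 1 (highest adjusted p = 0.967). Vim had a log2 difference of 3.95 without tomato+ cTEC replicate 2.

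Polarity genes were lower in VEC for 7 of 12 tested, 5 consistent and none higher, with a median of -1.84 on both scales. Inadl, a scaffold of the Crumbs complex, had 0, 0.0536 and 2.29 CPM in VEC libraries, against 40.5, 74.1 and 108 CPM in TEC libraries, 167-fold lower in VEC by the ratio of means (adjusted p = 4.1e-05). Pard6g had 0, 0.0520 and 5.23 CPM in VEC libraries, against 49.3, 90.4 and 133 CPM in TEC libraries, 95.4-fold lower in VEC by the ratio of means (adjusted p = 4.9e-05). Both encode parts of apical complexes and were near 0 in most VEC libraries. The basolateral members Scrib (adjusted p = 0.117), Dlg1 (adjusted p = 0.0512), Llgl1 (adjusted p = 0.549) and Llgl2 (adjusted p = 0.112) did not pass, nor did Pard6a (adjusted p = 0.564). Of 7 tested membrane serine proteases and their inhibitors, 5 were lower in VEC, 3 of them consistent, and 2 did not pass, with a median of -4.50 (-3.99 with lineage means and bounds). Spint1, an inhibitor of matriptase, had 0, 0.109 and 0.312 CPM in VEC libraries, against 33.3, 53.2 and 86.9 CPM in TEC libraries, 531-fold lower in VEC by the ratio of means (adjusted p = 1.48e-06). St14, matriptase itself, had 0, 0.221 and 1.71 CPM in VEC libraries, against 10.3, 22.8 and 40.3 CPM in TEC libraries, a log2 difference of -6.00 ± 0.94 (adjusted p = 0.000385). The related inhibitor Spint2 had 148, 360 and 836 CPM in VEC libraries, against 192, 362 and 551 CPM in TEC libraries and did not pass (adjusted p = 0.894). Spint1 and St14 separated the lineages, and Spint2 did not. The call of Hpn was lost without tomato+ VEC replicate 2 or 3 (highest adjusted p = 0.0515). St14 had a log2 difference of -6.59 without tomato- VEC replicate 3.

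Receptor tyrosine kinases carry growth-factor signals and were divided between the lineages. The shares over all tested genes were 14.4% higher and 21.8% lower in VEC. Of 42 tested, of 51 listed, 12 were higher in VEC, 6 of them consistent, 18 were lower, 7 of them consistent, and 12 did not pass, with a median of -0.60 (-0.42 with lineage means and bounds). Flt1, a vascular growth factor receptor, had 299.9, 408 and 692 CPM in VEC libraries, against 0.734, 4.79 and 14.0 CPM in TEC libraries, a log2 difference of 6.13 ± 0.69 (adjusted p = 2.78e-05). Egfr, the epidermal growth factor receptor, had 0.104, 0.219 and 0.319 CPM in VEC libraries, against 23.4, 102 and 224 CPM in TEC libraries, a log2 difference of -8.69 ± 0.45 (adjusted p = 6.7e-08). Ddr1, a collagen receptor, had 0, 0.109 and 1.79 CPM in VEC libraries, against 31.7, 74.2 and 181 CPM in TEC libraries, 226-fold lower in VEC by the ratio of means (adjusted p = 1.04e-05). Each was separate between lineages. Fgfr2, a receptor for epithelial growth factors of the fibroblast family, had 0.208, 0.131 and 0.107 CPM in tomato+ VEC and 2.56, 23.7 and 3.47 CPM in tomato- VEC, against 321, 228 and 235 CPM in tomato+ cTEC and 98.0, 120 and 149 CPM in tomato- mTEC. Its log2 difference was -7.14 ± 0.62 (adjusted p = 3.55e-06), with all TEC libraries above all VEC libraries. Kit, the receptor for Kit ligand, is added here after its values were seen: it had 7.17, 29.3 and 98.5 CPM in tomato+ VEC and 102, 96.7 and 104 CPM in tomato- VEC, against 0.459, 0.196 and 3.90 CPM in tomato+ cTEC and 46.3, 34.1 and 40.4 CPM in tomato- mTEC. It was called higher in VEC with a log2 difference of 3.10 ± 0.70 (adjusted p = 0.00459), although libraries overlapped. The calls of Csf1r, Erbb3, Epha5, Mst1r, Ror2 and Ptk7 were lost when single libraries were left out. That of Csf1r was lost without tomato+ cTEC replicate 2 (adjusted p = 0.0696), and that of Erbb3 without tomato+ VEC replicate 1, tomato- VEC replicate 1, 2 or 3, tomato+ cTEC replicate 1 or 3 or tomato- mTEC replicate 2 (highest adjusted p = 0.0726). The call of Epha5 was lost without tomato+ VEC replicate 1, 2 or 3, tomato- VEC replicate 1, 2 or 3, tomato+ cTEC replicate 1 or 3 or tomato- mTEC replicate 1 (highest adjusted p = 1). The call of Mst1r was lost without tomato+ VEC replicate 1, 2 or 3, tomato- VEC replicate 1, 2 or 3, tomato+ cTEC replicate 2 or tomato- mTEC replicate 1 or 2 (highest adjusted p = 0.342). The call of Ror2 was lost without tomato+ VEC replicate 1, 2 or 3, tomato- VEC replicate 2 or 3, tomato+ cTEC replicate 1 or 3 or tomato- mTEC replicate 2 (highest adjusted p = 0.298). The call of Ptk7 was lost without tomato+ VEC replicate 1 or 3, tomato- VEC replicate 2 or 3, tomato+ cTEC replicate 1, 2 or 3 or tomato- mTEC replicate 1, 2 or 3 (highest adjusted p = 0.0734). Flt1 had a log2 difference of 7.18 without tomato+ cTEC replicate 2, and Fgfr2 one of -7.96 without tomato- VEC replicate 2. That of Kit was 2.47 without tomato+ VEC replicate 3 and 4.22 without tomato+ cTEC replicate 3, and Kit did not pass with 2 lineage terms (adjusted p = 0.219) or with population as a random effect (adjusted p = 0.19).

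Genes of ligands of vascular receptors were called in both directions, as were 14.4% (higher in VEC) and 21.8% (lower in VEC) of all tested genes. Of 16 tested, 5 were higher in VEC (Angpt2, Pdgfb, Bmp6, Angptl4 and Efnb2), 4 were lower (Pdgfa, Angpt1, Slit2 and Sema3c) and 7 did not pass, Vegfa among them (adjusted p = 0.627). The median was -0.15 (-0.32 with lineage means and bounds). The angiopoietins, which act on the endothelial receptor Tek, were on opposite sides. Angpt2 had 24.3, 153 and 659 CPM in VEC libraries, against 0.0917, 15.4 and 51.4 CPM in TEC libraries, a log2 difference of 3.85 ± 0.53 (adjusted p = 0.000139). Angpt1 had 0.104, 0.262 and 0.214 CPM in tomato+ VEC and 0.111, 16.0 and 15.1 CPM in tomato- VEC, against 76.2, 72.1 and 121 CPM in tomato+ cTEC and 15.8, 21.5 and 14.6 CPM in tomato- mTEC, a log2 difference of -4.76 ± 0.82 (adjusted p = 0.000729). Libraries of the lineages overlapped in Angpt2 and, through tomato- VEC, in Angpt1. The platelet-derived growth factors were likewise opposite. Pdgfb had 44.6, 75.0 and 159 CPM in VEC libraries, against 0, 2.66 and 8.18 CPM in TEC libraries, a log2 difference of 5.10 ± 0.88 (adjusted p = 0.000723). Pdgfa had 0.425, 3.18 and 6.86 CPM in VEC libraries, against 28.0, 50.8 and 83.0 CPM in TEC libraries, a log2 difference of -3.69 ± 0.60 (adjusted p = 0.00046). Neither overlapped. The call of Efnb2 was lost without tomato- VEC replicate 3, tomato+ cTEC replicate 3 or tomato- mTEC replicate 1 (highest adjusted p = 0.0536), and that of Angptl4 without tomato- VEC replicate 1 (adjusted p = 0.0548). Pdgfb had a log2 difference of 8.16 without tomato+ cTEC replicate 2. Angpt1 did not pass with 2 lineage terms (adjusted p = 0.0572), nor Angpt2 with population as a random effect (adjusted p = 0.141).

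Genes of signals that T-cell progenitors receive were also called in both directions, beside 14.4% higher and 21.8% lower in VEC over all tested genes. Of 16 tested, of 17 listed, 4 were higher in VEC (Bmp4, Kitl, Dll4 and Cxcl12), 5 were lower (Ccl19, Wnt4, Il7, Ccl21a and Ccl25) and 7 did not pass, with a median of 0.03 (-0.01 with lineage means and bounds). Of the higher genes 0 were consistent in both VEC populations and of the lower genes 4 were. Il7, a survival cytokine of progenitors, had 0.104, 0 and 0.321 CPM in tomato+ VEC and 22.7, 3.82 and 9.86 CPM in tomato- VEC, against 416, 462 and 556 CPM in tomato+ cTEC and 222, 346 and 544 CPM in tomato- mTEC, a log2 difference of -8.23 ± 0.56 (adjusted p = 4.66e-07). Wnt4 had 0, 0.112 and 0.212 CPM in VEC libraries, against 21.5, 47.0 and 121 CPM in TEC libraries, 630-fold lower in VEC by the ratio of means (adjusted p = 3.68e-07). Ccl25, a chemokine that draws progenitors, had 0.312, 18.2 and 0.214 CPM in tomato+ VEC and 0.223, 10.8 and 3.03 CPM in tomato- VEC, against 3140, 4448 and 4169 CPM in tomato+ cTEC and 466, 472 and 357 CPM in tomato- mTEC, a log2 difference of -7.92 ± 1.10 (adjusted p = 0.000144). All TEC libraries were above all VEC libraries in these 3, and within TEC Ccl25 was higher in each cTEC library than in any mTEC library. Cxcl12, another progenitor chemokine, had 2039, 1413 and 1446 CPM in tomato+ VEC and 129, 122 and 108 CPM in tomato- VEC, against 1248, 1232 and 930 CPM in tomato+ cTEC and 16.4, 30.3 and 66.7 CPM in tomato- mTEC. The tomato+ population was the higher one in both lineages, and the lineage difference (1.09 ± 0.28 on the log2 scale, adjusted p = 0.00857) came with overlapping libraries. Ccl21a, a chemokine for T cells and thymic entry, had 2.60, 0.785 and 1.07 CPM in tomato+ VEC and 264, 277 and 77.3 CPM in tomato- VEC, against 458, 216 and 515 CPM in tomato+ cTEC and 3168, 4434 and 4781 CPM in tomato- mTEC, a log2 difference of -6.18 ± 0.44 (adjusted p = 6.04e-07). Tomato- VEC overlapped cTEC, and mTEC lay above all other libraries. Dll4, the Notch ligand that commits progenitors to T cells, had 177, 117 and 104 CPM in tomato+ VEC and 149, 91.7 and 66.1 CPM in tomato- VEC, against 23.1, 48.4 and 37.7 CPM in tomato+ cTEC and 3.37, 5.46 and 0.240 CPM in tomato- mTEC, a log2 difference of 3.48 ± 0.54 (adjusted p = 0.000337). VEC and TEC libraries did not overlap in Dll4. Jag1, another Notch ligand, had 212, 379 and 536 CPM in VEC libraries, against 241, 404 and 643 CPM in TEC libraries and did not pass (adjusted p = 0.223). The log2 difference of Ccl25 was -10.10 without tomato+ VEC replicate 2 and -8.64 without tomato- VEC replicate 2. With population as a random effect Ccl25 (adjusted p = 0.113), Ccl21a (adjusted p = 0.134) and Cxcl12 (adjusted p = 0.549) did not pass, nor did Cxcl12 with 2 lineage terms (adjusted p = 0.737). Ccl19 (adjusted p = 0.0637) and Bmp4 (adjusted p = 0.0711) also lost their calls with the random effect, and Bmp4 with 2 lineage terms (adjusted p = 0.175).

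Among 10 Notch receptors and targets, 4 were higher in VEC (Notch1, Notch4, Hes1 and Nrarp), 5 were lower (Notch2, Notch3, Hey1, Hey2 and Heyl) and Rbpj did not pass (adjusted p = 0.436). The median was -1.84, or -0.13 with lineage means and bounds. Notch1 had 143, 173 and 224 CPM in VEC libraries, against 36.3, 43.8 and 67.6 CPM in TEC libraries, a log2 difference of 1.89 ± 0.20 (adjusted p = 1.93e-05). Notch2 had 9.15, 21.7 and 55.9 CPM in VEC libraries, against 185, 268 and 350 CPM in TEC libraries, a log2 difference of -3.48 ± 0.23 (adjusted p = 3.68e-07). These receptors were opposite to each other and separate between lineages in both cases. Hey2 had 0, 0.160 and 1.14 CPM in VEC libraries, against 3.57, 20.6 and 36.8 CPM in TEC libraries, 69.3-fold lower in VEC by the ratio of means (adjusted p = 0.000498). Nrarp, a feedback inhibitor, had 25.8, 41.2 and 76.9 CPM in VEC libraries, against 0.779, 4.42 and 7.33 CPM in TEC libraries, a log2 difference of 3.50 ± 0.55 (adjusted p = 0.000367). Both targets separated the lineages. Hey1 had 16.5, 140 and 72.9 CPM in tomato+ VEC and 0, 0.319 and 0 CPM in tomato- VEC, against 57.2, 38.2 and 51.5 CPM in tomato+ cTEC and 14.3, 17.2 and 17.7 CPM in tomato- mTEC, with tomato- VEC at or near 0 and a tomato+ VEC library above all TEC libraries. The mean level of Hey1 was 1.17-fold higher in VEC, whereas the fitted difference, which averages populations on the log scale, was lower in VEC (adjusted p = 0.00208). With 2 lineage terms the difference of Hey1 turned to 0.22 (adjusted p = 0.924), and with population as a random effect its call was lost (adjusted p = 0.133).

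**Figure D5:**
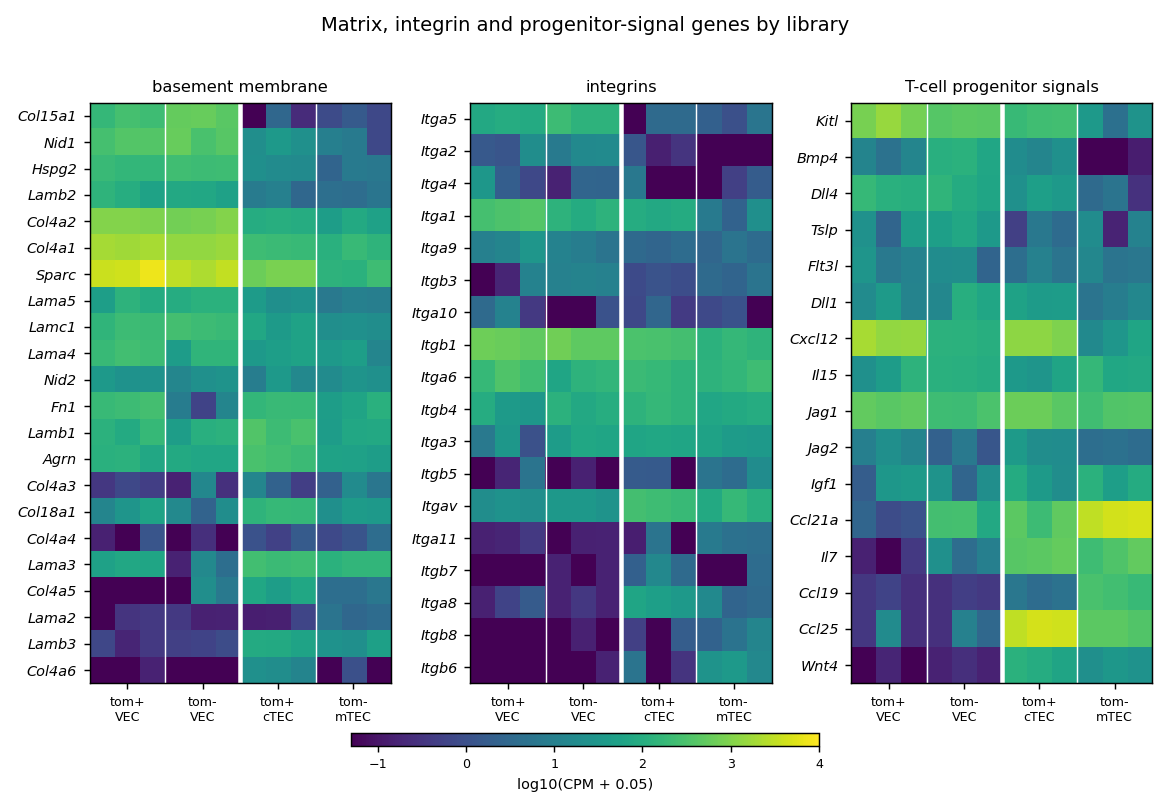
Heat maps of log10(CPM + 0.05) for basement membrane genes, integrins and T-cell progenitor signals, genes in rows and 12 libraries in columns, VEC left of TEC. Col4a1, Col4a2, Hspg2 and Itga5 are bright in VEC, Lamb3, Il7 and Ccl25 are bright in TEC, and Cxcl12 is bright in the tomato+ population of each lineage.

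Basement membrane genes differed by chain. Of 23 tested, of 25 listed, 10 were higher in VEC, 9 of them consistent, 7 were lower, 1 of them consistent, and 6 did not pass, with a median of -0.32 (-0.16 with lineage means and bounds). Col4a1, the common collagen IV chain, had 1363, 1693 and 1992 CPM in VEC libraries, against 116, 184 and 231 CPM in TEC libraries, a log2 difference of 3.25 ± 0.15 (adjusted p = 2.53e-08). Col4a2, its partner chain, had 736, 987 and 1042 CPM in VEC libraries, against 45.5, 89.6 and 108 CPM in TEC libraries, a log2 difference of 3.59 ± 0.18 (adjusted p = 5e-08). Hspg2, which encodes perlecan, had 162, 206 and 233 CPM in VEC libraries, against 2.51, 12.1 and 21.6 CPM in TEC libraries, a log2 difference of 4.29 ± 0.27 (adjusted p = 2.47e-07). All 3 were separate between lineages, and collagen IV was present in every TEC library. The laminin chains split as well. Lama4 (2.01 ± 0.37), Lama5 (2.66 ± 0.30), Lamb2 (3.85 ± 0.39) and Lamc1 (2.56 ± 0.21) were higher in VEC on the log2 scale. Lama3 (-3.12 ± 0.61) and Lamb3 (-6.71 ± 0.50), chains of a laminin typical of epithelia, were lower. The largest adjusted p of these 6 chains was 0.00177, for Lama3. Sparc, a matricellular protein, had 2203, 3514 and 7235 CPM in VEC libraries, against 119, 434 and 844 CPM in TEC libraries, a log2 difference of 3.41 ± 0.24 (adjusted p = 5.65e-07), and its lineages did not overlap. The call of Fn1, fibronectin, was lost without tomato+ VEC replicate 1 or 2, tomato- VEC replicate 1, tomato+ cTEC replicate 3 or tomato- mTEC replicate 3 (highest adjusted p = 0.0759), and that of Col4a6 without tomato- mTEC replicate 2 (adjusted p = 1). Lama3 had a log2 difference of -3.89 without tomato- VEC replicate 2.

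Integrins, which bind this matrix, also held calls in both directions, with 14.4% of all tested genes higher in VEC and 21.8% lower. Of 18 tested, of 19 listed, 5 were higher in VEC (Itgb1, Itga5, Itga1, Itga2 and Itga9), 6 were lower (Itgav, Itga8, Itgb6, Itgb8, Itgb7 and Itga11) and 7 did not pass, with a median of -0.28 (-0.22 with lineage means and bounds). Itga5, of the fibronectin receptor, had 79.8, 113 and 210 CPM in VEC libraries, against 0, 2.70 and 5.61 CPM in TEC libraries, a log2 difference of 5.52 ± 0.74 (adjusted p = 0.000111). Itgb1, the common beta chain, had 491, 557 and 695 CPM in VEC libraries, against 127, 219 and 321 CPM in TEC libraries, a log2 difference of 1.47 ± 0.15 (adjusted p = 1.53e-05). Itgav, which pairs with several beta chains, had 19.5, 25.7 and 34.2 CPM in VEC libraries, against 81.3, 180 and 259 CPM in TEC libraries, a log2 difference of -2.67 ± 0.23 (adjusted p = 3.06e-06). Itga8 had 0.104, 0.215 and 1.61 CPM in VEC libraries, against 2.56, 25.7 and 65.4 CPM in TEC libraries, a log2 difference of -5.65 ± 0.82 (adjusted p = 0.000207). Each of these 4 was separate between the lineages. The call of Itga9 was lost without tomato+ VEC replicate 3, tomato+ cTEC replicate 2 or tomato- mTEC replicate 1 (highest adjusted p = 0.0529), that of Itgb7 without tomato- mTEC replicate 3 (adjusted p = 1) and that of Itga11 without tomato+ cTEC replicate 2 (adjusted p = 0.229). Itga8 had a log2 difference of -6.24 without tomato+ VEC replicate 3 and -4.95 without tomato- mTEC replicate 1.

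Antigen presentation differed by class. MHC class II genes were lower in VEC for 10 of 12 tested, 9 of them consistent, with a median of -5.81 (-5.69 with lineage means and bounds). Cd74, the invariant chain, had 208, 551 and 1617 CPM in VEC libraries, against 25478, 35901 and 55287 CPM in TEC libraries, a log2 difference of -5.99 ± 0.26 (adjusted p = 1.73e-08). H2-Aa had 57.8, 135 and 232 CPM in VEC libraries, against 5888, 8586 and 12077 CPM in TEC libraries, a log2 difference of -5.95 ± 0.27 (adjusted p = 2.24e-08). Ciita, the master activator of the class, had 0, 0.160 and 3.11 CPM in VEC libraries, against 13.4, 38.6 and 50.8 CPM in TEC libraries, a log2 difference of -5.70 ± 1.08 (adjusted p = 0.00139). These were separate between lineages, and Cd74 and H2-Aa were still detected in every VEC library. H2-Ob had 3.12, 25.2 and 42.9 CPM in VEC libraries, against 2.93, 35.6 and 85.3 CPM in TEC libraries and did not pass (adjusted p = 0.999), nor did the protease gene Ctss (adjusted p = 0.0825). The call of Ctsl, the cortical protease of the class II path, was lost without tomato+ VEC replicate 1, 2 or 3, tomato- VEC replicate 1, 2 or 3, tomato+ cTEC replicate 1, 2 or 3 or tomato- mTEC replicate 3 (highest adjusted p = 0.11). Ciita had a log2 difference of -7.25 without tomato+ VEC replicate 3 and -6.96 without tomato- VEC replicate 2.

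MHC class I genes were higher in VEC for 7 of 13 tested, 2 of them consistent, 1 (Psmb10) was lower and 5 did not pass, with a median of 0.60 on both scales. The differences were far smaller than those of class II. B2m, the class I light chain, had 13423, 15375 and 17365 CPM in VEC libraries, against 6793, 9090 and 12019 CPM in TEC libraries, a log2 difference of 0.75 ± 0.09 (adjusted p = 4.65e-05). H2-D1 had 3501, 3767 and 5612 CPM in VEC libraries, against 1748, 2100 and 3013 CPM in TEC libraries, a log2 difference of 0.90 ± 0.12 (adjusted p = 0.000123). Tap2, a subunit of the peptide transporter, had 93.6, 124 and 144 CPM in VEC libraries, against 34.5, 45.0 and 57.9 CPM in TEC libraries, a log2 difference of 1.39 ± 0.19 (adjusted p = 0.000158). All 3 were separate between lineages, with high levels in both. Under total-count scaling 6 members were higher and 3 lower. The call of Psmb10, an immunoproteasome subunit, was lost without tomato+ cTEC replicate 3 (adjusted p = 0.0544). Tested against a log2 fold of 1, B2m (adjusted p = 1) and H2-D1 (adjusted p = 0.901) did not pass.

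Cell-cycle genes were lower in VEC for 8 of 16 tested, 4 of them consistent and none higher, with a median of -2.93 (-2.65 with lineage means and bounds). Their summed level was 87.7 to 192 CPM in VEC libraries, against 177 to 1004 CPM in TEC libraries. Tpx2, a spindle protein, had 0, 0 and 0.131 CPM in VEC libraries, against 13.8, 45.6 and 69.4 CPM in TEC libraries, 1252-fold lower in VEC with a counting interval of 346 to 10343 (adjusted p = 3.71e-06). Bub1, a checkpoint kinase, had 0, 0 and 0.214 CPM in VEC libraries, against 8.23, 18.0 and 33.5 CPM in TEC libraries, 364-fold lower in VEC with a counting interval of 124 to 1767 (adjusted p = 3.7e-05). Both separated the lineages. Mki67, the usual proliferation marker, had 3.95, 8.17 and 29.8 CPM in VEC libraries, against 0.825, 66.1 and 119 CPM in TEC libraries and did not pass (adjusted p = 0.0697). The call of Ccnb2 was lost without tomato+ VEC replicate 2, tomato- VEC replicate 1 or 2, tomato+ cTEC replicate 2 or 3 or tomato- mTEC replicate 1 or 3 (highest adjusted p = 0.0753), and that of Mcm2 without tomato- mTEC replicate 3 (adjusted p = 0.0574).

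Immediate early and stress genes, which cell dissociation can induce, were higher in VEC for 8 of 14 tested, 3 of them consistent, 1 was lower and 5 did not pass, with a median of 0.78 (0.74 with lineage means and bounds). Their sum was 9490 to 15007 CPM in tomato+ VEC and 9029 to 13149 CPM in tomato- VEC, against 7040 to 8929 CPM in cTEC and 3618 to 5858 CPM in mTEC. The exact permutation test (two-sided) gave p = 0.00216, or 0.00563 after adjustment over 13 lists, and p = 0.0195 with total-count scaling. It takes the 6 libraries of a lineage as alike. Since this list was also chosen with earlier results of these data known, the test adds no support. Ier3 had 988, 1423 and 1742 CPM in VEC libraries, against 81.8, 315 and 526 CPM in TEC libraries, a log2 difference of 2.45 ± 0.21 (adjusted p = 2.78e-06). Zfp36, which destabilises short-lived messages, had 1622, 2957 and 3316 CPM in VEC libraries, against 694, 1053 and 1410 CPM in TEC libraries, a log2 difference of 1.36 ± 0.18 (adjusted p = 0.000121). Both were separate between lineages, whereas Fos, with 2487, 3265 and 4463 CPM in VEC libraries, against 1210, 1873 and 2657 CPM in TEC libraries, overlapped. The call of Junb was lost without tomato+ VEC replicate 1, tomato- VEC replicate 1 or 2, tomato+ cTEC replicate 2 or 3 or tomato- mTEC replicate 1 or 2 (highest adjusted p = 0.0868), and that of Dnajb1 without tomato+ VEC replicate 1 or 3, tomato- VEC replicate 2 or 3, tomato+ cTEC replicate 2 or 3 or tomato- mTEC replicate 2 (highest adjusted p = 0.104). How far this list moved with the other results was not tested. Of 14 housekeeping genes, 1 was higher, 1 (Rpl13a) was lower and 12 did not pass, with a median of 0.003. The call of Rpl13a was lost without tomato- VEC replicate 3 or tomato- mTEC replicate 1 (highest adjusted p = 0.0606).

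Summed markers of fibroblasts, mural cells and thymocytes were higher in TEC libraries. The summed level of 8 fibroblast markers was 10.9 to 51.2 CPM in VEC libraries, against 145 to 2202 CPM in TEC libraries. Dcn, decorin, made up most of it in TEC libraries, at 5.40, 14.5 and 5.57 CPM in tomato+ VEC and 44.1, 19.8 and 5.27 CPM in tomato- VEC, against 2057, 1976 and 1559 CPM in tomato+ cTEC and 237, 116 and 370 CPM in tomato- mTEC. Col1a1 did not exceed 10.2 CPM in any library, and Pdgfra, a defining marker, had 0.224, 1.14 and 8.11 CPM in VEC libraries, against 0.481, 2.43 and 9.26 CPM in TEC libraries. Of the 8 fibroblast genes 6 were lower in VEC, and the calls of Col1a2, Col1a1 and Lum were lost when single libraries were left out. That of Col1a2 was lost without tomato+ VEC replicate 1 or 3, tomato- VEC replicate 1, 2 or 3, tomato+ cTEC replicate 1 or 2 or tomato- mTEC replicate 1 or 2 (highest adjusted p = 0.139). The call of Col1a1 was lost without tomato+ VEC replicate 1, 2 or 3, tomato- VEC replicate 1 or 3, tomato+ cTEC replicate 1 or 2 or tomato- mTEC replicate 1 or 2 (highest adjusted p = 0.172). The call of Lum was lost without tomato+ VEC replicate 1 or 3, tomato- VEC replicate 1, 2 or 3, tomato+ cTEC replicate 1, 2 or 3 or tomato- mTEC replicate 2 or 3 (highest adjusted p = 0.269). Without tomato+ cTEC replicate 2, 3 of the 8 were lower.

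Mural markers summed to 70.2 to 514 CPM in VEC libraries, against 485 to 1608 CPM in TEC libraries, and 8 of 9 tested were lower in VEC. Acta2, smooth muscle actin, had 2.46, 4.35 and 9.64 CPM in VEC libraries, against 75.7, 269 and 361 CPM in TEC libraries, a log2 difference of -5.73 ± 0.44 (adjusted p = 1.34e-06). Myh11, smooth muscle myosin, had 0.112, 0.431 and 3.93 CPM in VEC libraries, against 39.4, 81.9 and 110 CPM in TEC libraries, a log2 difference of -6.13 ± 0.78 (adjusted p = 7.48e-05). Both were separate between lineages, whereas the pericyte gene Kcnj8 was at 0 in all TEC libraries and Pdgfrb had 0.111, 0.219 and 0.319 CPM in VEC libraries, against 0.173, 4.32 and 17.0 CPM in TEC libraries. Abcc9 was the mural gene higher in VEC, a call lost without tomato+ VEC replicate 1, tomato+ cTEC replicate 1, 2 or 3 or tomato- mTEC replicate 2 (highest adjusted p = 0.113). The call of Tagln was lost without tomato+ VEC replicate 1 or 3, tomato- VEC replicate 1 or 3, tomato+ cTEC replicate 3 or tomato- mTEC replicate 2 or 3 (highest adjusted p = 0.132). Without tomato+ cTEC replicate 2, 7 mural genes were lower and none higher, with a list median of -3.16, against -3.94 with it. Myh11 had a log2 difference of -7.29 without tomato- VEC replicate 2.

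Thymocyte markers summed to 2.44 to 33.07 CPM in VEC libraries, against 33.13 to 146 CPM in TEC libraries, with cTEC at 102 to 146 and mTEC at 33.13 to 47.0. Of 12 tested, 9 were lower in VEC, and Cd3e and Cd8a were at 0 in all VEC libraries. Cd3g, a chain of the T-cell receptor complex, had 0, 0 and 0.111 CPM in VEC libraries, against 0, 7.67 and 22.4 CPM in TEC libraries, 444-fold lower in VEC with a counting interval of 79.4 to 17574 (adjusted p = 0.00317). Dntt, the nucleotide-adding enzyme of immature thymocytes, had 0, 0 and 0.560 CPM in VEC libraries, against 0, 13.9 and 34.0 CPM in TEC libraries, 117-fold lower in VEC by the ratio of means (adjusted p = 0.00622). Both overlapped, since some TEC libraries were at 0. The calls of 5 more were lost when single libraries were left out: Cd3e without tomato- mTEC replicate 1 (adjusted p = 1), Cd2 without tomato- mTEC replicate 1 (adjusted p = 1) and Themis without tomato+ VEC replicate 1, 2 or 3, tomato- VEC replicate 1, 2 or 3, tomato+ cTEC replicate 2 or tomato- mTEC replicate 2 (highest adjusted p = 1). The call of Rag1 was lost without tomato+ VEC replicate 2 or 3, tomato- VEC replicate 1 or 2, tomato+ cTEC replicate 1 or 3 or tomato- mTEC replicate 3 (highest adjusted p = 0.101). The call of Cd8b1 was lost without tomato+ VEC replicate 1, 2 or 3, tomato- VEC replicate 1 or 3, tomato+ cTEC replicate 2 or 3 or tomato- mTEC replicate 2 (highest adjusted p = 0.303). Without tomato+ cTEC replicate 2, 7 thymocyte genes were lower, with a list median of -4.51, against -5.10 with it. Dntt did not pass with population as a random effect (adjusted p = 0.0682). The part of fibroblast, mural and thymocyte RNA in the genes lower in VEC was not tested.

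A last comparison asked whether the endothelial-epithelial difference was the same in the tomato+ pair (tomato+ VEC minus tomato+ cTEC) and the tomato- pair (tomato- VEC minus tomato- mTEC). It differed for 456 genes (3.08%), 228 in each direction. Of these, 311 were also called between lineages, and 85 were consistent genes, which passed the lineage contrast and all 4 population pairs. The count was 159 without mTEC replicate 1, 188 without cTEC replicate 1, 192 without mTEC replicate 2, 220 without mTEC replicate 3, 255 without cTEC replicate 3 and 287 without tomato- VEC replicate 1. It was 269 with the replicate block, 1407 with DESeq2, 1309 with voom and 1766 with limma-trend on RPKM. The 5 genes with the smallest p among the lineage calls were Tgfbr3, Prss23, Pitpnc1, Bmp4 and St3gal6. Tgfbr3, a TGF-beta co-receptor, had 474, 425 and 426 CPM in tomato+ VEC and 500.1, 493 and 579 CPM in tomato- VEC, against 316, 329 and 285 CPM in tomato+ cTEC and 17.5, 19.1 and 25.4 CPM in tomato- mTEC. Bmp4, a morphogen of the thymic rudiment, had 12.1, 4.97 and 12.6 CPM in tomato+ VEC and 113, 121 and 69.3 CPM in tomato- VEC, against 19.1, 12.7 and 22.9 CPM in tomato+ cTEC and 0, 0 and 0.0802 CPM in tomato- mTEC. Bmp4 was thus ordered tomato- VEC, tomato+ cTEC, tomato+ VEC and mTEC from high to low, with the nearest libraries of cTEC and tomato+ VEC at 12.7 and 12.6 CPM. Prss23, a serine protease, had 104, 61.3 and 152 CPM in tomato+ VEC and 298, 355 and 292 CPM in tomato- VEC, against 91.0, 114 and 30.8 CPM in tomato+ cTEC and 0.0964, 0 and 0.0802 CPM in tomato- mTEC. Pitpnc1, a phospholipid transfer protein, had 337, 430 and 290 CPM in tomato+ VEC and 96.0, 109 and 147 CPM in tomato- VEC, against 29.3, 27.9 and 23.4 CPM in tomato+ cTEC and 381, 320 and 206 CPM in tomato- mTEC. St3gal6, a sialyltransferase, had 342, 336 and 201 CPM in tomato+ VEC and 622, 543 and 519 CPM in tomato- VEC, against 159, 141 and 144 CPM in tomato+ cTEC and 17.4, 19.0 and 23.3 CPM in tomato- mTEC. The tomato+ minus tomato- difference of differences was -4.15 ± 0.29 (adjusted p = 7.46e-05) for Tgfbr3, 5.08 ± 0.41 (adjusted p = 0.000143) for Pitpnc1 and -3.83 ± 0.34 (adjusted p = 0.000277) for St3gal6 on the log2 scale. Bmp4 and Prss23 had 3 or fewer counts over the mTEC libraries, so no fitted size is given, and their adjusted p was 0.000277 for Bmp4 and 0.000143 for Prss23.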

How the data were processed

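Polyadenylated RNA of sorted mouse thymic stroma was amplified with the SMARTer ultra-low kit and made into libraries with NEBNext reagents, per the labels' protocols. TopHat2 2.0.10 and the build mm9 are named in the submitters' processing notes; which counter, annotation or strand setting was used is unknown here. Raw counts per gene symbol were deposited, per the file headers, for 12 libraries in 4 populations of 3. Deposited RPKM values, per the file headers, equal the deposited counts scaled by column total and gene length for 180417 values within 1e-06. Of 23306 symbols 1704 had no count, and 2660 with counts shared all of them with another symbol.

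Counts were tested in R 4.3.3 with edgeR 4.0.16: filterByExpr (minimum count 10) left 14792 genes, TMM scaling was used, and a term per population left 8 residual degrees of freedom, with a common dispersion of 0.624. The lineage contrast weighted populations equally, and consistent genes passed it and all 4 population pairs. Summed marker CPM were compared by exact permutation tests (two-sided, 13 lists). Intervals at the 95% level and the floor of 3 counts cover counting error only.

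Named genes were those of the sort and reporter, the 10 with the widest gap in each direction, up to 4 called members of each list with the smallest p, all members of lists of 6 or fewer, and 5 with the smallest p of the pair difference; further list members appear where their list is counted, and a few genes within the counts are not reported here by name. Members and the 39 lists (528 genes) were chosen with earlier results of these data known. The alternatives were DESeq2 1.42.0, limma 3.58.1 voom, RLE and total-count scaling, no filter, a filter at 5 CPM, 2 lineage terms, robust dispersions, the replicate number as a block, a fold threshold, limma-trend on log2(RPKM + 1), population as a random effect, and leaving out each library. List values without tomato+ cTEC replicate 2 were added after seeing the data. In 1 simulated draw of the lineage comparison (14394 genes, 50 altered at each fold), edgeR found 4% of genes altered 2-fold, 38% at 4-fold, 78% at 8-fold and 72% at 16-fold. Of its calls 8.57% were false, against 39.0% of the DESeq2 calls and 4.88% of the voom calls in the same draw. Far fewer genes were altered in the draw than were called in the data, so these false shares do not carry over to the calls above. Same-numbered replicates deviated together with correlations of -0.014 to 0.069 (18 pairs, median 0.017), against -0.051 to 0.025 for different numbers (36 pairs, median -0.011). Both ranges were near 0, and the numbers were not treated as pairs in the main fit. A fit with the replicate number as a block is among the alternatives.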

Additional observations from a re-analysis of the deposited data

Results flagged for a closer look

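A library stood apart from the other 5 of its lineage in 13 of 180 groups of 6 libraries checked by Dixon's ratio (critical value 0.625); chance alone flags about 1 in 20 groups. For Kitl the tomato+ VEC replicate 2 was at 1546 CPM, with the other VEC libraries at 393 to 809. Sparc reached 7235 CPM in tomato+ VEC replicate 3, against 2203 to 4048 in the others. Tomato- VEC replicate 1 was high for Robo4 (645 CPM), Arhgap29 (732 CPM), Pf4 (55.2 CPM, the others 6.93 or less) and the erythroid and platelet sum (207 CPM, the others 3.32 to 19.4). The B cell sum was 9.42 CPM in tomato+ VEC replicate 2 (0 to 0.319 in the others), and the glial sum 3.14 CPM in tomato- VEC replicate 3 (0 to 0.131). In TEC, cTEC replicate 2 was high for the endothelial marker sum (257 CPM, the others 4.33 to 38.0) and for Zeb2 (9.60 CPM, the others 0 to 0.240). Cldn1 was 75.1 CPM in cTEC replicate 1. Itgam was 15.6 CPM in mTEC replicate 2 (0 to 4.09 in the others), and Snai2 was low in mTEC replicate 1 (64.4 CPM, the others 131 to 162).

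The endothelial-epithelial difference of 20 named genes differed between the tomato+ pair and the tomato- pair, by edgeR's quasi-likelihood test of that difference at an adjusted p under 0.05. Values are log2, tomato+ pair minus tomato- pair. Those above 0 were Sox7 (5.51), Ccl19 (5.66), Dock9 (2.88), Rgs5 (6.31) and Pitpnc1 (5.08). Below 0 were Sdpr (-5.08), F8 (-3.90) and Hspg2 (-2.19), and Tgfbr3 (-4.15), St3gal6 (-3.83) and Prss23 (-11.59) of the genes chosen for this difference. Also below 0 were the epithelial genes Dsc3 (-3.84) and Fgfr2 (-7.03), the signals Angpt1 (-8.06), Il7 (-6.60), Ccl21a (-3.70) and Bmp4 (-12.06), and Ier3 (-1.75), Dcn (-4.40) and Gpm6a (-8.27). The sizes for genes with 3 or fewer counts in a population (Dsc3, Prss23 and Bmp4 among them) depend on the prior count and are no bounds.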

How the results depend on the processing

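Of the alternatives, the count of genes higher in VEC (2137) moved by over 1.5 times to 1195 with a log2 fold tested against 1 and to 1169 with population as a random effect, and that of genes lower (3226) moved to 1699 with the random effect; the estimated correlation within populations was 0.259. Consistent genes higher in VEC (721) became 403 with the fold threshold. Genes that differed between the pairs (456) became 1407 with DESeq2, 1309 with voom, 1766 with limma-trend on RPKM, 269 with the replicate block and 194 with the fold threshold. With the replicate block the lineage counts were 1978 higher and 2950 lower, and the consistent counts 668 and 739. Leaving out each library gave 1889 to 2230 genes higher, 2679 to 3271 lower, 574 to 699 consistent higher, 715 to 805 consistent lower and 159 to 491 pair differences. Total-count scaling turned the VEC minus TEC difference of the erythroid and platelet sum to -0.0570 CPM and of the housekeeping sum to -140 CPM. Zeb2 (0.43) turned to -0.77 with 2 lineage terms and -0.069 with limma-trend. With single libraries left out it ran from -0.046 (without tomato- VEC replicate 3) to 2.70 (without cTEC replicate 2), and Gpm6a (1.26) from -0.24 (without tomato+ VEC replicate 1) to 1.67 (without cTEC replicate 2); neither had passed. The cause of these changes was not tested. Over 154 named genes, most of them chosen for a small p, leaving out a library kept direction and side of the threshold in 1816 values, lost it in 30 and turned it in 2, and other settings did so in 1770, 60 and 2. Of 195 called list members outside this choice, 33 lost the call without at least 1 library, in 174 of 2340 values. Low counts limit the precision of genes near the floor, whose ratios span wide counting intervals.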

Other observations

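Markers of other cells did not separate the lineages in the summed levels of myeloid, B cell, erythroid and platelet, and mesothelial genes (smallest exact permutation p = 0.121, two-sided). These sums were not even across populations, as given below. The glial sum was 0 to 3.14 CPM in VEC libraries, against 1.56 to 16.0 CPM in TEC libraries, with overlap. Its exact permutation test (two-sided) gave p = 0.00649, or 0.0106 after adjustment over 13 lists, on a list chosen with earlier results of these data known. Of 8 tested myeloid markers, 1 was higher in VEC, 2 were lower and 5 did not pass. Zbtb46, a dendritic-cell factor that endothelium also expresses, had 8.07, 17.6 and 52.7 CPM in VEC libraries, against 0, 0.998 and 13.1 CPM in TEC libraries, 7.64-fold higher in VEC by the ratio of means (adjusted p = 0.00185). Csf1r, the macrophage growth factor receptor, had 0, 0.121 and 1.66 CPM in VEC libraries, against 0.0866, 4.03 and 18.0 CPM in TEC libraries. Emr1 and Tyrobp were at 0 in all VEC libraries, and the myeloid sum was 25.8 to 157 CPM in VEC libraries, against 14.8 to 453 CPM in TEC libraries (exact permutation test, two-sided, p = 0.121). Within TEC the myeloid sum was 14.8 to 171 CPM in cTEC and 412 to 453 CPM in mTEC, so that all mTEC libraries lay above all VEC libraries. The B cell sum was 0 to 2.51 CPM in cTEC and 7.21 to 38.7 CPM in mTEC. The call of Itgam was lost without tomato+ VEC replicate 1, 2 or 3, tomato- VEC replicate 1 or 3, tomato+ cTEC replicate 3 or tomato- mTEC replicate 2 or 3 (highest adjusted p = 0.286).

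Of 9 tested erythroid and platelet markers, 2 were higher in VEC, 1 was lower and 6 did not pass. Itga2b, the platelet integrin chain, had 0.727, 6.08 and 12.2 CPM in VEC libraries, against 0.196, 0.676 and 1.28 CPM in TEC libraries, a log2 difference of 3.13 ± 0.87 (adjusted p = 0.0144), with overlapping libraries. It was 2.28 without tomato+ VEC replicate 2, and Itga2b did not pass with population as a random effect (adjusted p = 0.132). The call of Pf4 was lost without tomato+ VEC replicate 1 or 2, tomato- VEC replicate 1, tomato+ cTEC replicate 1, 2 or 3 or tomato- mTEC replicate 1 or 2 (highest adjusted p = 0.492), and that of Alas2 without tomato+ cTEC replicate 3 (adjusted p = 0.113). The sum was 3.32 to 207 CPM in VEC libraries, against 0.294 to 93.7 CPM in TEC libraries (exact permutation test, two-sided, p = 0.883). Within TEC it was 0.294 to 2.94 CPM in cTEC and 41.6 to 93.7 CPM in mTEC. Msln, a mesothelial surface protein, had 0, 0 and 0.112 CPM in VEC libraries, against 12.6, 77.9 and 273 CPM in TEC libraries, 2639-fold lower in VEC with a counting interval of 730 to 21800 (adjusted p = 4.21e-07), while the mesothelial sum overlapped (0.536 to 323 CPM in VEC libraries, against 38.4 to 283 CPM in TEC libraries), and Gpm6a, with 0, 93.7 and 322 CPM in VEC libraries, against 2.31, 13.6 and 92.1 CPM in TEC libraries, did not pass. By population the mesothelial sum was 0.536 to 19.2 CPM in tomato+ VEC and 169 to 323 CPM in tomato- VEC. It was 38.4 to 133 CPM in cTEC and 119 to 283 CPM in mTEC. Cd79b, a B-cell receptor chain, was called lower in VEC at an adjusted p of 0.00558, a call lost without tomato+ cTEC replicate 3 (adjusted p = 1). Cd79b also did not pass with population as a random effect (adjusted p = 0.152), nor Zbtb46 with 2 lineage terms (adjusted p = 0.0952).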
